A study of Mus musculus with 6 samples.

Results

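The CatSper channel is the sperm-specific calcium channel of the flagellum, and 8 of its subunit genes were examined in mouse testis: Catsper1, Catsper2, Catsper3 and Catsper4, which form the pore, and the auxiliary subunits Catsperb, Catsperg1, Catsperg2 and Catsperd. In the RefSeq gene table the measured members lie on chromosomes 19 (Catsper1), 2 (Catsper2), 13 (Catsper3), 17 (Catsperd) and 7 (Catsperg1 and Catsperg2). Members were all probe sets annotated to 1 of these genes alone, by current or older symbol, and this rule itself uses no measured value, although the genes were proposed with earlier results of these data known. The rule found 9 probe sets of 45037 for 6 of the 8 genes (18193 genes have such a probe set in all); Catsper4 and Catsperb are not analysed here. Expression was measured on 6 Affymetrix whole-genome mouse arrays, 3 of wild-type animals and 3 of transgenic animals that carry a constitutively active DREAM mutant. The arrays read total RNA of adult testes taken fresh, and both groups share a C57BL/6 x CBA hybrid background. DREAM, the product of Kcnip3, is a calcium-binding protein that represses transcription while free of calcium, and the study's title concerns gene expression and calcium mobilization in sperm cells. The promoter of the transgene, the cells that express it and the number of founder lines are not given in the sources used here.

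CatSper opens when the inside of the flagellum becomes alkaline, and the calcium it lets in drives hyperactivated swimming, the vigorous beat that takes sperm through the coat of the egg. A pore of 4 different proteins sits with a canopy of large auxiliary subunits, and loss of a pore subunit leaves male mice infertile. The genes are transcribed in the testis while germ cells pass through meiosis and the spermatid stages, long before the protein works in mature sperm.

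Array medians ran from 5.99 to 6.08 on the log2 scale, wild type replicate 2 stood apart on the first principal component (42.2 against -23.3 to 5.27 for the others), and each value is limited by the 3 arrays of its group. Whether the arrays of a group came from different mice is stated only as independent biological replicates. Testis identity was plain from its germ cell genes: the mean log2 level over 10 elongating spermatid genes, the protamines Prm1 and Prm2 among them, lay between 13.26 and 13.36 on all 6 arrays. The brighter Kcnip3 probe set had log2 levels of 7.21 ± 0.11 (SD, n = 3) in wild type and 7.27 ± 0.11 in the transgenic group, a difference of 0.06 (SE 0.10, limma adjusted p = 0.974), so this probe set does not check the genotype labels; whether it matches the transgene's transcript is not known. Of all probe sets 200, or 0.444%, passed an adjusted p of 0.05 in limma's moderated test with Benjamini-Hochberg adjustment.

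None of the 9 CatSper probe sets passed that test (0 of 9 against 0.444% of all probe sets, 0.171% higher and 0.273% lower), and 0 of them had an unadjusted p under 0.05, which 6.69% of all probe sets had. Their differences, transgenic minus wild type on the log2 scale, lay between -0.16 and 0.10, with 5 below 0 and 4 above. The median size of a difference was 0.06, beside 0.08 over all probe sets. The outermost bounds of the 9 intervals at 95% were -0.37 and 0.38, or -22.7% and 30% of intensity. A 2-fold change of intensity thus lay outside the interval of each probe set. For Catsperg2, which is not shown to lie above background, this does not bound a change of its transcript. Without wild type replicate 2 the count was 0 as well.

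Catsper1, the pore subunit whose long histidine-rich start is thought to sense pH, had nearly the same readings in both groups. Its probe set read 9.58, 9.69 and 9.63 on the wild-type arrays and 9.60, 9.69 and 9.64 on the transgenic ones (log2 intensity, replicates 1 to 3). The groups overlapped along their whole range. The difference was 0.01 (SE 0.09, 95% interval -0.18 to 0.20, limma adjusted p = 0.994), which bounds the change of intensity between -11.9% and 15.1%.

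Catsper2, a pore subunit whose loss also leaves sperm unable to hyperactivate, had the difference of largest size among the members. With its brighter probe set it read 10.90, 10.84 and 10.92 on the wild-type arrays and 10.74, 10.82 and 10.61 on the transgenic ones. All 3 transgenic readings lay below all 3 wild-type ones, by a gap of 0.02 at the closest, and transgenic replicate 3 was the lowest. The difference was -0.16 (SE 0.09, 95% interval -0.37 to 0.04, limma adjusted p = 0.842). Its dimmer probe set read 6.28, 6.50 and 6.29 on the wild-type arrays and 6.30, 6.32 and 6.24 on the transgenic ones, with overlapping groups and a difference of -0.07 (SE 0.10, adjusted p = 0.968). The wild type replicate 2 reading of 6.50 was the one high value there, and across the 6 arrays the probe sets had a Pearson r of 0.30.

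Catsper3 completes the measured pore subunits. It read 9.16, 9.17 and 9.15 on the wild-type arrays and 9.08, 9.08 and 9.14 on the transgenic ones. The transgenic readings again lay below the wild-type ones, with a gap of 0.01, which is the step to which the values were deposited. The difference was -0.06 (SE 0.08, 95% interval -0.25 to 0.13, limma adjusted p = 0.969).

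Among the auxiliary subunits, Catsperd, a transmembrane subunit needed for a stable channel, had the clearest separation of readings. Its brighter probe set read 10.62, 10.64 and 10.63 on the wild-type arrays and 10.47, 10.55 and 10.53 on the transgenic ones. The groups were 0.07 apart at the closest, and the SDs were 0.01 and 0.04 (n = 3). The difference was -0.11 (SE 0.08, 95% interval -0.30 to 0.07, limma adjusted p = 0.915), or -7.56% of intensity with bounds of -18.8% and 5.23%. The other Catsperd probe set did not repeat the order: it read 5.97, 6.21 and 6.03 against 6.03, 6.20 and 6.14, a difference of 0.05 (SE 0.10, adjusted p = 0.978), and r between both was 0.01 over the 6 arrays. With both probe sets averaged the Catsperd difference was -0.03 (95% interval -0.20 to 0.14).

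Catsperg1 and Catsperg2 are mouse copies of the gamma subunit, a large protein of the channel's extracellular canopy. The brighter Catsperg1 probe set read 8.91, 9.11 and 9.35 on the wild-type arrays and 9.25, 9.11 and 9.31 on the transgenic ones. Wild type replicate 1 was the low array, and the groups overlapped. The difference was 0.10 (SE 0.12, 95% interval -0.18 to 0.38, limma adjusted p = 0.965), and without wild type replicate 1 it was -0.01. The other Catsperg1 probe set read 7.57, 7.79 and 7.82 against 7.66, 7.93 and 7.65, a difference of 0.02 (SE 0.11, adjusted p = 0.993). Catsperg2 read 4.98, 4.57 and 4.79 against 4.65, 4.85 and 4.78, a difference of -0.02 (SE 0.12, 95% interval -0.29 to 0.25, adjusted p = 0.993). It was the only member probe set among the lowest 40% of the table (mean log2 intensity under 5.56), and as these values carry no detection call it is not shown to lie above background. Whether probes of one gamma copy also read the other was not tested.

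**Figure D1:**
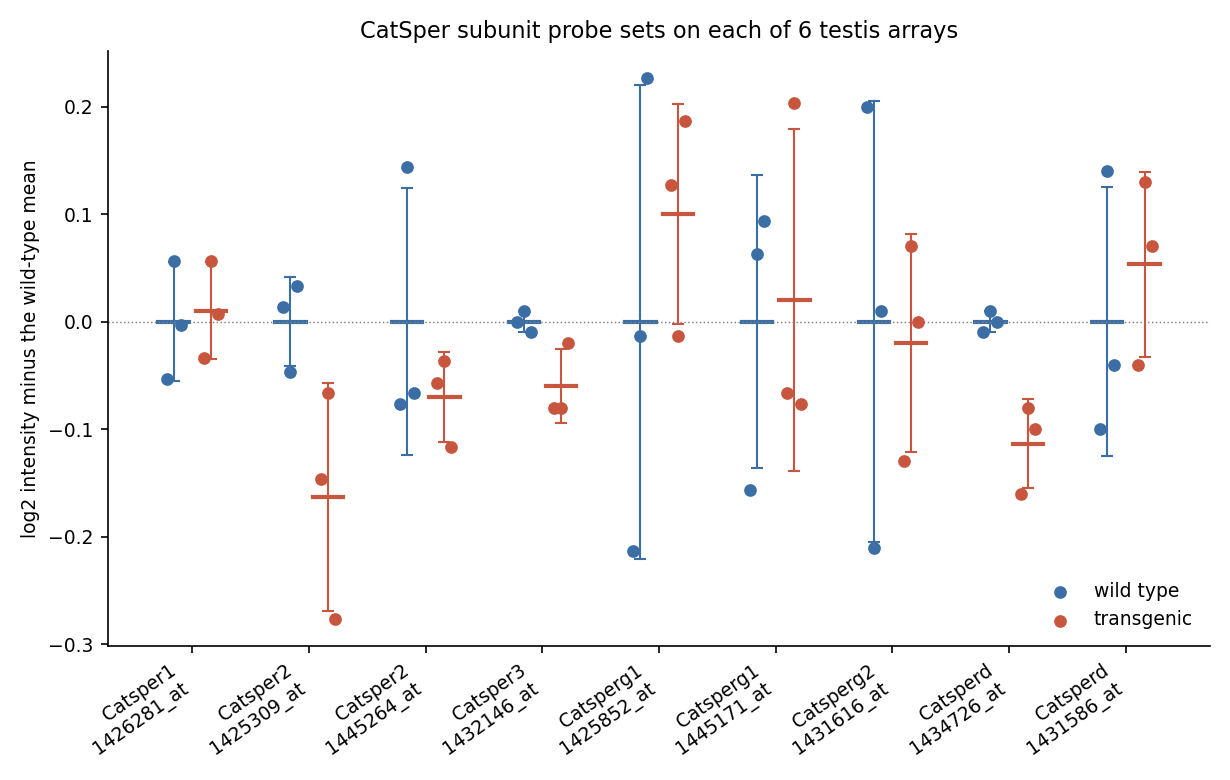
Log2 intensity of the 9 CatSper probe sets on each array (points; 3 wild type, 3 transgenic), given as the distance from the wild-type mean of that probe set, with the group mean (thick line) and SD (thin bar). The transgenic points lie below all wild-type points for the brighter Catsper2 and Catsperd probe sets and for Catsper3, and overlap them for the other 6.

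Groups did not overlap with 3 of the 9 probe sets, transgenic below in each, where 11.3% of all probe sets did not overlap, 4.95% with the transgenic arrays below and 6.35% with them above. This was not particular to the CatSper genes. In the germ cell lists given below, 3 of 10 spermatocyte and 2 of 10 round spermatid genes did not overlap, transgenic below in each. Of 10 elongating spermatid genes 2 did not overlap, both with the transgenic arrays above. An exact permutation test of each of the 3 CatSper probe sets (two-sided, 3 arrays against 3) gave p = 0.1, the smallest that 20 splits allow. Any probe set whose groups do not overlap gets this value, so the test adds nothing to the lack of overlap. The arrays of a group differed little: the residual SD was 0.081 for Catsper2, 0.025 for Catsper3 and 0.03 for Catsperd, beside a median of 0.13 over all probe sets. Limma draws each spread towards a common one, so the SDs behind the tests were 0.113, 0.101 and 0.101. Leaving out each array in turn gave -0.21 to -0.11 for Catsper2, -0.08 to -0.05 for Catsper3 and -0.13 to -0.09 for Catsperd, with no adjusted p under 0.511.

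Some other measures of the arrays also separated the groups. The mean log2 level of 10 spermatocyte genes was 10.02 to 10.14 in wild type and 9.88 to 9.96 in transgenic testis. Their differences lay below 0 in 9 of the 10, with 0 past the test and a median of -0.13. Sycp1, of the synaptonemal complex, read -0.41 and Spo11, which cuts DNA to start recombination, read -0.38 (limma adjusted p = 0.541 and 0.451). The genes did not move evenly: Pgk2, Ccna1 and Ldhc read -0.02, -0.02 and 0.01. For 10 round spermatid genes the means overlapped (11.17 to 11.19 and 11.05 to 11.22), with 0 past the test, 7 differences below 0, 3 above and a median of -0.05; Izumo1, which binds its receptor on the egg, had -0.28 and Spaca1, of the acrosomal membrane, -0.18 (adjusted p = 0.476 and 0.796), while Tssk1, a testis-specific kinase, had 0.06. The elongating spermatid means were 13.26 to 13.31 and 13.31 to 13.36, touching at 13.31, again with 0 of 10 past the test. Of these genes 4 differences lay above 0, 3 below and 3 at 0.00, with a median of 0.00; the 2 of smallest p were Spem1 (0.21) and Odf2 (0.11; adjusted p = 0.72 and 0.93). In whole testis, fewer cells of a type and less RNA per cell cannot be told apart. The Gapdh 3' minus 5' difference, a sign of RNA integrity, was 0.06 to 0.16 in wild type and 0.21 to 0.33 in transgenic testis, while that of beta-actin overlapped (0.41 to 0.50 and 0.47 to 0.53). The Gapdh value was then added to the fit, a step taken after looking at the data. Catsper2, Catsper3 and Catsperd read -0.09, -0.10 and -0.14 with SEs of 0.18, 0.16 and 0.16. Because the Gapdh values do not overlap between the groups, this fit cannot clearly separate them from genotype. The part of germ cell makeup in these differences was not tested.

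Of the somatic and other lists, spermatogonia (7 measured genes, 7.01 to 7.12 in wild type and 7.04 to 7.08 in transgenic testis), Sertoli (8, 7.62 to 7.84 and 7.63 to 7.78) and epididymis (4, 5.16 to 5.42 and 5.19 to 5.31) overlapped between the groups. The Leydig (5, 9.19 to 9.49 and 9.71 to 9.88), macrophage (4, 5.98 to 6.26 and 6.30 to 6.33) and endothelial means (4, 4.86 to 4.99 and 5.19 to 5.25) were higher on every transgenic array. Above the lowest 40% by mean intensity lay 3 of the 4 macrophage genes, 1 of the 4 endothelial and 1 of the 4 epididymis genes. The other genes of these lists are not shown to lie above background. The Leydig genes did not move as a group: their median difference was 0.03, and Star (0.01), Cyp11a1 (-0.06) and Cyp17a1 (0.03) overlapped between the groups. The higher mean came with Hsd3b1, an enzyme of steroid synthesis and the one gene of these lists past the test (1.48, limma adjusted p = 0.00109), and Hsd17b3, which makes testosterone (0.91, adjusted p = 0.146).

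The CatSper genes had no common pattern across arrays, but several varied too little for r to show much. The group SDs were 0.01 and 0.03 for Catsper3 and 0.01 and 0.04 for Catsperd (wild type and transgenic), and Catsperg2 is not shown to lie above background. Over the 15 pairs of the 6 genes, each by its brighter probe set, Pearson r across the 6 arrays ran from -0.44 to 0.82 with a median of 0.03, given as a description since arrays share processing and group. Catsper3 and Catsperd had the highest r (0.82), followed by Catsper2 and Catsperd (0.72), and after removal of the group means these were 0.29 and 0.03. After that removal r over the 15 pairs ran from -0.93 to 0.76, with a median of 0.04. The mean profile of the 6 genes stayed within -0.05 (transgenic replicate 1) and 0.06 (wild type replicate 3) of its centre. Of 14236 other genes above the lowest 40%, 30 had an r above 0.9 with that profile. The 3 highest were 1700069L16Rik (r = 0.986), Impdh1, which makes guanine nucleotides (r = 0.978), and Slc8a3, a sodium-calcium exchanger (r = 0.953). They are the top of a search of many genes over only 6 arrays, whose profile values span the narrow range above. A high r found this way shows no link to the CatSper genes.

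Promoter sequence is shown for the 3 members whose readings did not overlap, since DREAM is known to bind DNA at sites with the core GTCA. The windows are the 250 bases before the start in RefSeq, build GRCm38.p6: chr2:121413793-121414042 on the minus strand for Catsper2, chr13:55784329-55784578 on the plus strand for Catsper3 and chr17:56626797-56627046 on the plus strand for the first of the Catsperd starts. Sequences run 5′ to 3′, and capitals mark GTCA on either strand (GTCA or TGAC).
Catsper2: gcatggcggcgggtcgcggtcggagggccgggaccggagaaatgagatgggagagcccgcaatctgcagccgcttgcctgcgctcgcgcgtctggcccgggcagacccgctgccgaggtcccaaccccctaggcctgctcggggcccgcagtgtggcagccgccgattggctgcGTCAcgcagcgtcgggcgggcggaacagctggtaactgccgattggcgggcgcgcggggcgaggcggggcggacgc
Catsper3: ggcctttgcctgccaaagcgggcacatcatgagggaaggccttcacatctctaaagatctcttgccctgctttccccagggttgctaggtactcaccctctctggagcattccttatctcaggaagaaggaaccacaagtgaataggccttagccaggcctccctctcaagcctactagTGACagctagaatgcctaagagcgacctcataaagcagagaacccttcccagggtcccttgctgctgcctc
Catsperd: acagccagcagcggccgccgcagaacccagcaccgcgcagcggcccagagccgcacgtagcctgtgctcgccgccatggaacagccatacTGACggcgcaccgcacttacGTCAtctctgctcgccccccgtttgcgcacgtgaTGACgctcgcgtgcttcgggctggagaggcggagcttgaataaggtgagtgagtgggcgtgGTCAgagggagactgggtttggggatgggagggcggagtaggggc

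Catsper2 and Catsper3 held 1 match each, 76 and 71 bases before the start, and this Catsperd window held 4. At least 1 match was found in 80.2% of 32851 RefSeq promoter windows of the same length, and 4 or more in 11.4%. The other Catsperd start had 1 match, and Catsperg1 had 1 window of 3 matches and 1 of 0. Whether the matches go with the differences was not tested. RefSeq windows were given for 6 of the 8 genes (Catsper2, Catsper3, Catsper4, Catsperb, Catsperg1 and Catsperd), 8 windows in all, and 7 of them held the core. The cAMP response element TGACGTCA, palindromic and holding both forms of the core, was in 0 of the 8 and in 1.55% of all windows. A match is a run of letters and not a shown binding site. DREAM's sites are described mainly after the start, outside these windows, and bases there were not searched. The counts therefore cannot show whether DREAM binds at these genes.

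A probe set outside the rule gave the one call in the channel complex. Its annotation lists a pair of names, Gm30473 and Catspere2, and the RefSeq gene table carries Gm30473 as a synonym of Catspere2, which encodes an epsilon subunit of the canopy; it was singled out after its values were seen. It read 9.13, 9.18 and 9.21 on the wild-type arrays and 8.48, 8.72 and 8.58 on the transgenic ones (log2 intensity). Every transgenic reading lay below every wild-type one, 0.41 apart at the closest, and transgenic replicate 1 was the lowest. The intensity fell by 0.58 on the log2 scale (SE 0.09, 95% interval -0.79 to -0.37, limma adjusted p = 0.0403), 1.49-fold, where 0.273% of all probe sets passed in that direction. The call was kept without wild type replicate 2 (adjusted p = 0.0344) and lost without each other array: 0.0821 and 0.242 without wild type replicates 1 and 3, and 0.212, 0.0999 and 0.205 without transgenic replicates 1, 2 and 3. With the Gapdh value as a covariate, which is not clearly separable from genotype here, the difference was -0.61 (SE 0.19 against 0.09, adjusted p = 0.367). Over all alternatives it lay between -0.64 and -0.52.

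**Figure D2:**
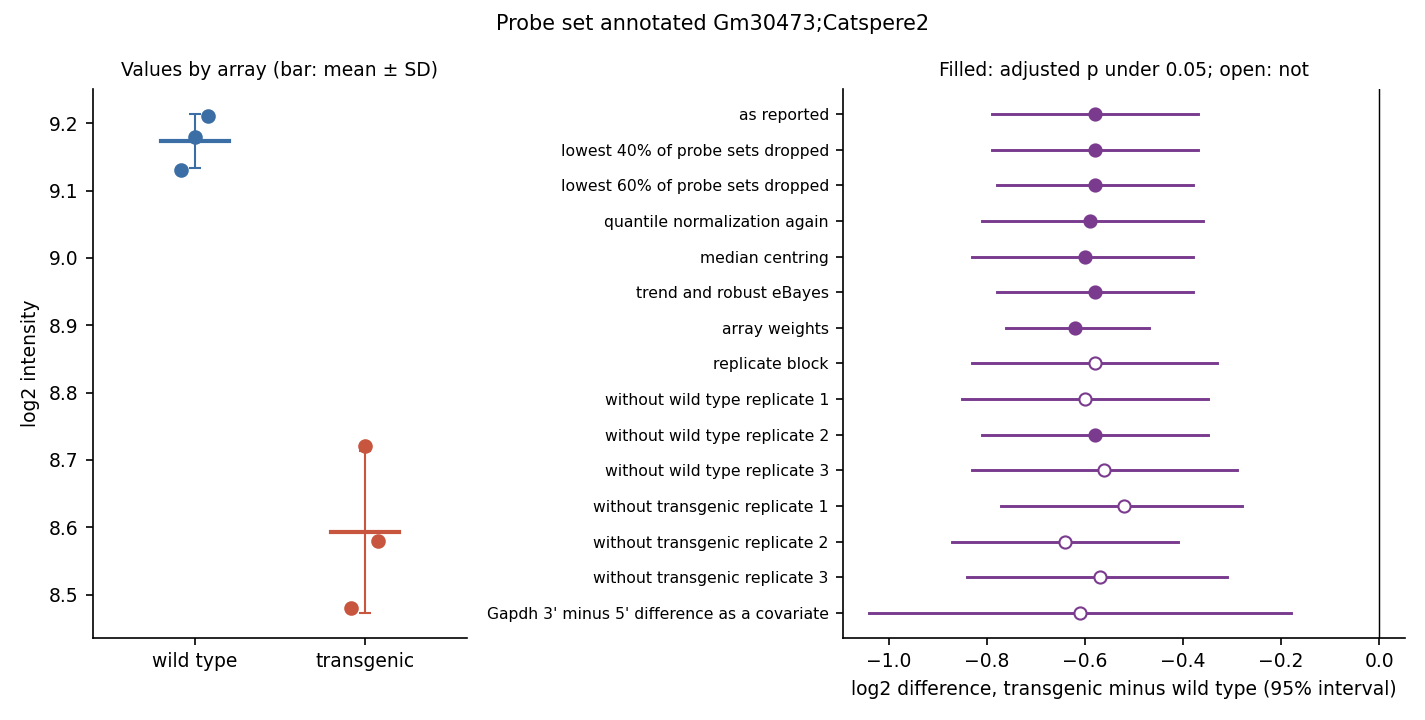
Left, log2 intensity of the probe set annotated Gm30473 and Catspere2 on each array, with group mean and SD; right, its log2 difference with the 95% interval under each setting, filled where the adjusted p was under 0.05. The wild-type points lie between 9.13 and 9.21 and the transgenic ones between 8.48 and 8.72, and 7 of the 14 alternatives keep the call.

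Catspere2 has a neighbouring copy, Catspere1, next to it on chromosome 1, which carries no probe set of its own in the annotation used here. The 250 bases before their RefSeq starts (GRCm38.p6, plus strand) are shown because they let both copies be compared: chr1:177808169-177808418 for Catspere1 and chr1:177991148-177991397 for the first of the Catspere2 starts. Capitals mark bases that differ from, or have no partner in, the other copy.
Catspere1: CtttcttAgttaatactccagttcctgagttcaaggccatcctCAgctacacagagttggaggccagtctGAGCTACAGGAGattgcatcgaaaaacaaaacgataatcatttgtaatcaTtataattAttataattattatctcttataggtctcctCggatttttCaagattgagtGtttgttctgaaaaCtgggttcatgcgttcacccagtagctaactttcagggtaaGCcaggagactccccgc
Catspere2: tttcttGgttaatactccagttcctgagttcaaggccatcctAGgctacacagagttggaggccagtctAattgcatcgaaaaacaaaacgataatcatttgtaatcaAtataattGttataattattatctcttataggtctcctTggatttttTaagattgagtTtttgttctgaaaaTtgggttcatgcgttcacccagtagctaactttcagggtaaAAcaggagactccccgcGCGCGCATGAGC

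In a global alignment 226 of 238 paired bases were identical, where the most identical bases that any of 21 pairs of the other CatSper promoters shared was 134. Neither window held GTCA on either strand, and the bases after the start were not searched. Which of the copies the probe set reads was not tested.

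The other measured genes of the complex and its assembly gave 0 calls of 7, where 0.444% of all probe sets were called. They had 4 differences below 0, 2 above and 1 at 0.00, with a median of -0.09 beside 0.02 over all probe sets. The spermatocyte, round spermatid and elongating spermatid lists had medians of -0.13, -0.05 and 0.00, so the complex median lay within their range. Trim69, a RING-finger protein reported with the channel complex, had the smallest p. It read 10.41, 10.45 and 10.40 on the wild-type arrays and 10.95, 11.22 and 10.83 on the transgenic ones, so all transgenic readings were higher, by 0.38 at the closest. The difference was 0.58 (SE 0.11, 95% interval 0.33 to 0.83, limma adjusted p = 0.0815); it passed under limma's trend and robust settings (adjusted p = 0.0124) and ranged from 0.058 to 0.354 in adjusted p with 1 array left out. Tmem249, the theta subunit, read 7.53, 7.75 and 7.81 on the wild-type arrays and 7.36, 7.48 and 7.58 on the transgenic ones, with overlapping groups and a difference of -0.22 (SE 0.11, adjusted p = 0.786). Efcab9, the calcium sensor of the channel, read 11.05, 11.04 and 11.04 against 10.87, 10.97 and 10.97, with no overlap, a difference of -0.11 (SE 0.08, 95% interval -0.30 to 0.08, adjusted p = 0.929). Trim69 and Efcab9 were the 2 of 7 whose groups did not overlap, 1 in each direction, where 11.3% of all probe sets did not overlap.

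Catsperz, which works with Efcab9, read -0.09 (SE 0.09, limma adjusted p = 0.947), but the accession listed for its probe set belongs to the neighbouring gene Kcnk4 in the RefSeq table, so the gene it reads is uncertain. C2cd6, the tau subunit that brings the channel into the flagellum, read 0.02 (SE 0.16, adjusted p = 0.993), with transgenic readings from 8.91 to 9.64 around wild-type ones of 9.17 to 9.30. Slco6c1, a transporter-like protein of the complex, read 0.00 with its brighter probe set (95% interval -0.20 to 0.19) and Tmem262, the eta subunit, -0.10 (SE 0.12, adjusted p = 0.965).

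**Figure D3:**
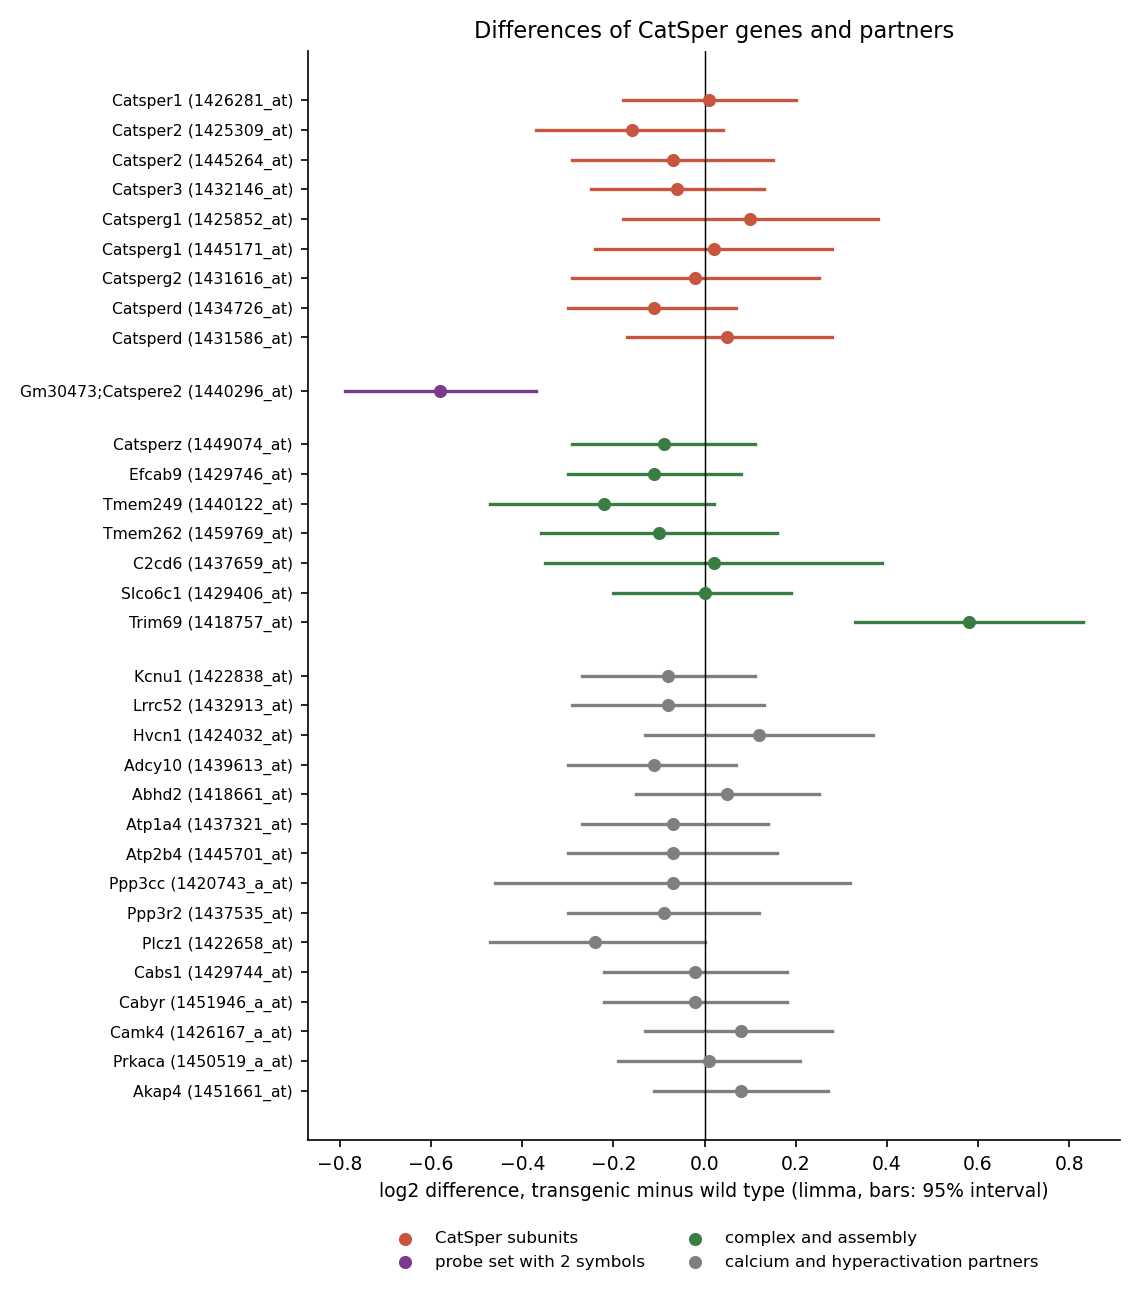
Log2 difference, transgenic minus wild type, with its 95% interval for the 9 CatSper probe sets, the probe set with 2 symbols, 7 complex and assembly genes and 15 partner genes (each gene of the last groups by its brightest probe set). The intervals of the 9 CatSper probe sets all include 0, that of the probe set with 2 symbols lies below it (-0.79 to -0.37) and that of Trim69 above it (0.33 to 0.83).

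Genes that set the inputs of the channel or act on sperm calcium gave 0 calls of 15, where 0.444% of all probe sets were called, a share beside which 0 of 15 is no result about these genes. They had 10 differences below 0 and 5 above, with a median of -0.07. Groups did not overlap for 3 of the 15 (11.3% of all probe sets), 2 with the transgenic arrays below and 1 above. Plcz1, the sperm phospholipase that starts calcium waves in the egg, read 11.57, 11.46 and 11.44 on the wild-type arrays and 11.13, 11.21 and 11.42 on the transgenic ones, a difference of -0.24 (SE 0.10, limma adjusted p = 0.734) with no overlap. With its dimmer probe set the groups overlapped, and the difference was -0.18 (SE 0.14, adjusted p = 0.923). Adcy10, the bicarbonate-stimulated adenylyl cyclase of sperm, read 9.91, 9.90 and 9.85 against 9.74, 9.81 and 9.77 with no overlap, a difference of -0.11 (SE 0.08, adjusted p = 0.915). Akap4, the main scaffold protein of the fibrous sheath, was the one above: its brightest probe set had 13.04 ± 0.04 in wild type and 13.12 ± 0.03 in the transgenic group (SD, n = 3), 0.01 apart at the closest, a difference of 0.08 (SE 0.08, adjusted p = 0.956), and its other probe sets overlapped. Kcnu1, the alkaline-activated potassium channel of sperm, and its partner Lrrc52 each read -0.08 (95% intervals -0.27 to 0.11 and -0.29 to 0.13).

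**Figure D4:**
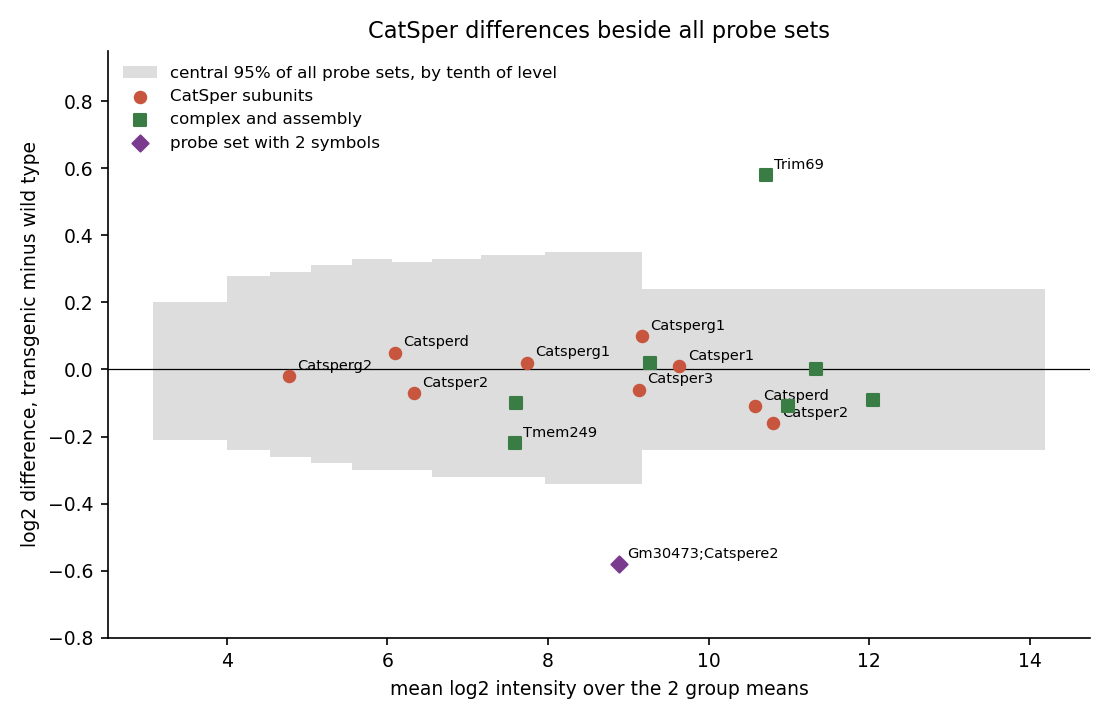
Log2 difference, transgenic minus wild type, against mean log2 intensity for the 9 CatSper probe sets (circles), 7 complex and assembly genes (squares) and the probe set with 2 symbols (diamond); grey holds the central 95% of all probe sets in each of 10 equal steps of intensity rank. All 9 CatSper points lie within the grey band, and Trim69 (0.58) and the probe set with 2 symbols (-0.58) lie outside it.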

How the data were processed

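The authors deposited log2 intensities per probe set, made with RMA and the affy package per the submitters' processing notes, with no version or parameters given. Because RMA equalises the arrays, values are relative to the rest of each array, and there is no call of presence or absence. The table holds 45101 probe sets. The 64 Affymetrix controls were left out, and the other 45037 were all tested. Of these, 34945 carry 1 gene symbol in the platform annotation, 932 several and 9160 none here, and symbols were updated through the RefSeq gene table of GRCm38.p6, which matched 34741. Differences (transgenic minus wild type) were tested two-sided with lmFit and eBayes of limma 3.58.1, run in R 4.3.3, and p-values adjusted by Benjamini-Hochberg over the whole table. The test was checked on simulated data with log2 changes of 1 and 2 put in, so recovery of smaller changes was not checked. The set of member genes, the lists and the rules were chosen with earlier results of these data known; the rule that assigns probe sets to the members uses the annotation alone. Named were all member probe sets, Kcnip3 and the 3 genes of closest profile. In the CatSper and germ cell lists, members past the threshold or else the 2 of smallest p by brightest probe set were named. Efcab9, Catsperz, C2cd6, Slco6c1, Tmem262, Kcnu1, Lrrc52, Akap4, Tssk1, Pgk2, Ccna1, Ldhc and the Leydig genes were added. Other marker lists are given by their means. Alternatives were filters on dim probe sets, normalization, variance model, weights per array, a block for the replicate number, single arrays left out, averaged probe sets and the call threshold. The Gapdh covariate and the probe set with 2 symbols were added after the data were seen.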

Additional observations from a re-analysis of the deposited data

How the results depend on the processing

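No CatSper probe set passed under any of 14 settings (dropping the lowest 40% or 60% of probe sets leaves 8 or 6 of the 9 tested); the smallest adjusted p was 0.0806, for Catsper2 with array weights, and the differences lay between -0.37 and 0.21. The lowest was Catsperg2 with the Gapdh covariate (-0.37, SE 0.20, against -0.02 as reported), the largest move of any member; the cause was not tested. Of the 122 values under these settings, 111 kept their direction or read 0.00 and 11 had the opposite sign, all of them of differences of 0.10 or less in size. Median centring gave -0.01 for Catsper1, array weights gave -0.11 and -0.07 for the brighter and dimmer Catsperg1 probe sets, and the Gapdh covariate gave 0.12 for the dimmer Catsper2 probe set. With 1 array left out, the ranges were -0.02 to 0.04 for Catsper1, -0.01 to 0.21 and -0.07 to 0.07 for the brighter and dimmer Catsperg1 probe sets and -0.12 to 0.08 for Catsperg2.

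The count over the whole table moved from 200 to 306 with trend and robust settings, 4160 with array weights, 117 with the replicate block, 18 with the Gapdh covariate and 317 at an adjusted p under 0.10, and ran from 70 to 429 with 1 array left out (429 without wild type replicate 2). The array weight fit stopped before it converged and gave wild type replicate 3 a weight of 19.1, against 0.237 to 0.812 for the others. In the complex and assembly list 1 gene passed with trend and robust settings and at an adjusted p under 0.10 (Trim69), 2 with array weights (Trim69 and Tmem249), and 1 when the probe set with 2 symbols was counted. That probe set lost its call with the replicate block (-0.58, adjusted p = 0.13). Same-numbered arrays did not deviate together (correlations of -0.32, -0.07 and -0.01 for numbers 1, 2 and 3), so the replicate numbers were not taken to pair the samples. The Gapdh values do not overlap between the groups, so the fit with them cannot clearly separate them from genotype. The cause of the changes in these counts and calls was not tested. A change that lies within the intervals given can go undetected with 3 arrays per group, and larger ones can fail the adjusted test. No detection limit was computed. Trim69, with a difference of 0.58 and an interval of 0.33 to 0.83, did not pass in the reported fit (limma adjusted p = 0.0815).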
